A study of Mus musculus with 8 samples.

Results

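The genes described here are the collagen chain genes of the mouse, taken as every protein-coding gene of the deposited count table whose symbol has the form of a collagen chain (Col, type number, a, chain number). This gave 44 genes of the 54532 in the table, 22046 of which were protein-coding. By collagen type, 11 encode fibrillar chains (types I, II, III, V, XI, XXIV and XXVII), 8 encode chains of basement membranes (type IV with types XV and XVIII), 9 encode fibril-associated collagens with interrupted triple helices, or FACITs (types IX, XII, XIV, XVI, XIX, XX and XXII), and 16 belong to other types. After the filter on low counts 36 were tested, 10 fibrillar, 8 basement membrane, 7 FACIT and 11 others, and the remaining 8 are listed with their counts.

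Collagens are secreted proteins of triple-helical chains, wound from identical or different chains, so the chains of one type often depend on each other for assembly. Fibrillar collagens make the tensile fibrils of connective tissue, type IV collagen makes the network of every basement membrane, and FACITs sit on the surface of fibrils. In the wall of the stomach, fibroblasts of the lamina propria and submucosa are known as the main makers of fibrillar collagen, while epithelium, smooth muscle and vessels each add chains of their own basement membrane.

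RNA came from the corpus, the acid-secreting region of the stomach, of 8 untreated mice. The 4 mutants were Six2-Cre+/- PKAcaR fl/wt and the 4 controls Six2-Cre+/- PKAcaR wt/wt, all on a mixed C57BL/6 X CD1 background, so every animal carried the Cre transgene, which is driven by the Six2 promoter. The mutants have a floxed PKAcaR copy, an allele of Prkaca, which encodes a catalytic subunit of protein kinase A, the kinase that cyclic AMP activates. Each library is 1 animal, and the comparison asks which genes differ between mutant and control corpus. The labels used here give no ages.

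Prkaca, the gene the allele modifies, was at 14.7, 16.3, 14.8 and 14.8 FPKM in mutants 1 to 4, against 34.3, 31.7, 31.2 and 30.7 FPKM in controls 1 to 4. All mutants lay below all controls, with a log2 fold change, mutant over control, of -1.08 (SE 0.0852, adjusted p = 0.000604) in edgeR's quasi-likelihood test. FPKM are reads per length of gene and per library size, as the authors scaled them. Libraries held 18184281 to 23814720 counted reads in mutants and 18942308 to 22814152 in controls. Mutant 2 stood apart from the other mutants, with a correlation of log2 CPM of 0.8289 to 0.875 to them, against at least 0.972 among those 3. Mutant 3 and control 3 carried transcripts of squamous epithelium, such as the keratin Krt5 at 73.8 FPKM in mutant 3 and 14.01 FPKM in control 3. The markers of parietal cells, the acid-secreting cells of the labelled region, summed to 946, 98.2, 1668 and 1248 FPKM in mutants and 7934, 6801, 9605 and 8712 FPKM in controls. All 5 listed genes were detected. The 6 markers of corpus surface and neck epithelium summed to 20088, 8346, 31490 and 21260 FPKM in mutants and 29898, 31449, 18681 and 22924 FPKM in controls. Both sums were lowest in mutant 2, though 1 of these 6 markers, Epcam, was highest there. Since fibroblast genes are high in mutant 2, the collagens and their pathway lists are given with all 8 libraries and without that one.

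Collagens of the mutant corpus changed in both directions. As a share of counted reads the collagen total was higher in every mutant. Collagen genes took 0.360, 6.29, 0.358 and 0.562% of counted reads in mutants 1 to 4, against 0.189, 0.188, 0.187 and 0.230% in controls 1 to 4. The 95% exact binomial interval of mutant 2, the highest, was 6.28% to 6.30%, and it covers counting error only. Mutant 2 thus held the largest share by a wide margin, and the lowest mutant still lay above the highest control. A share of reads follows plain library totals. On those totals the median log2 fold change over all tested genes was 0.76 with all libraries and 0.71 without mutant 2, so a higher share was common to most genes.

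Per length and on the authors' scaling, the summed collagen FPKM was 363, 5495, 372 and 551 in mutants and 295, 293, 349 and 346 in controls. On that scale mutants 1 and 3 lay just above the highest control, by less than their excess over it in Col18a1 alone. Fibrillar chains made up 43.9, 78.2, 43.2 and 44.95% of the collagen FPKM in mutants, against 42.7, 44.1, 41.9 and 42.7% in controls. Outside mutant 2 the fibrillar share of mutants and controls overlapped. The basement membrane share was 32.9, 13.8, 31.3 and 32.2% in mutants and 23.2, 23.3, 26.5 and 26.97% in controls. It was above every control in mutants 1, 3 and 4 and below every control in mutant 2. In mutants 1, 3 and 4 that class sum, 119, 116 and 177 FPKM, held Col18a1 at 48.4, 55.0 and 75.3 FPKM. In controls it was 68.2, 68.3, 92.3 and 93.4 FPKM, with Col18a1 at 8.54, 11.3, 10.3 and 10.1 FPKM. The median log2 fold change of the class was negative with and without mutant 2, so the share shows no class-wide rise. The share of the other types was 18.99, 4.22, 20.1 and 17.99% in mutants and 29.2, 28.6, 26.6 and 26.4% in controls, lower in each mutant than in any control. Their summed FPKM, 68.9, 232, 74.6 and 99.2 in mutants and 85.9, 83.9, 92.9 and 91.4 in controls, was not. In it mutants 2 and 4 lay above every control and mutants 1 and 3 below. FACITs gave 4.29, 3.74, 5.40 and 4.86% in mutants and 4.94, 4.04, 5.08 and 3.93% in controls, with overlap.

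**Figure D1:**
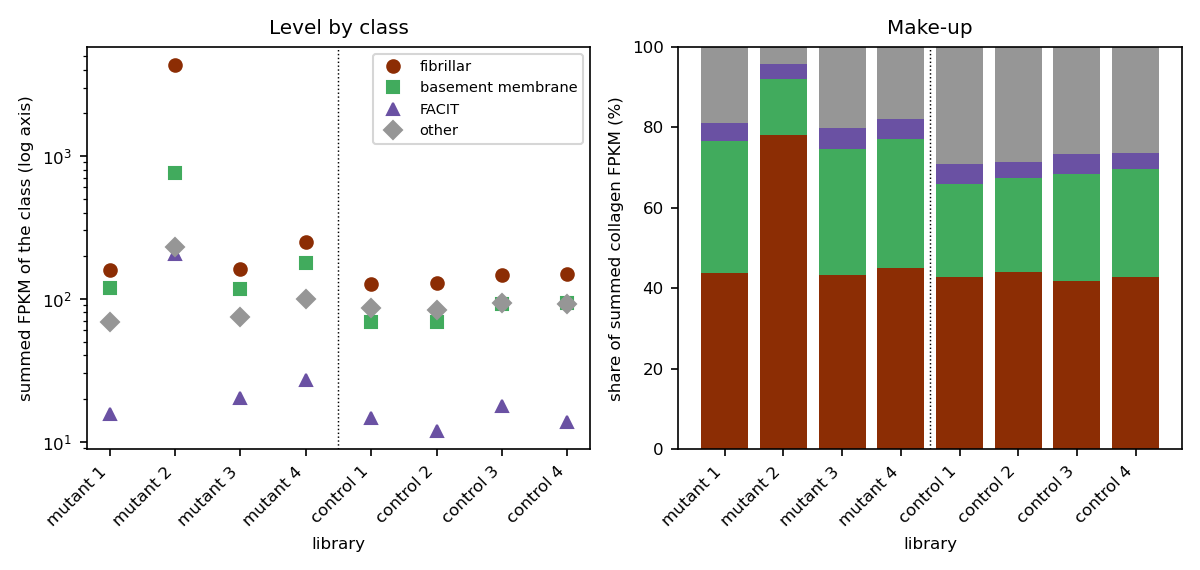
Left, summed FPKM of the collagen genes of each class in the 4 mutant and 4 control libraries, on a log axis. Right, the share of each class in the summed collagen FPKM of a library, in percent. Mutant 2 stands far above the other libraries in fibrillar FPKM, and the basement membrane share of mutants 1, 3 and 4 (31.3% to 32.9%) lies above that of the controls (23.2% to 26.97%). Within that class only Col18a1 was several-fold higher in these mutants than in controls.

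Of the 36 tested collagens, 5 were higher and 2 lower in mutants with all 8 libraries (edgeR, Benjamini-Hochberg adjusted p under 0.05 over all genes). That is 19.4% of the tested collagens, close to the 20.2% of all 15862 tested genes that were called, with 9.39% of the tested genes higher and 10.8% lower. The 5 were Col11a2, Col18a1, Col9a3, Col12a1 and Col22a1, and the 2 were Col4a3 and Col4a4. Without mutant 2, 7 were higher and 8 lower, 41.7% of the 36, beside 33.5% of all genes tested in that fit, 15.2% higher and 18.3% lower. The 7 called with all libraries were called in the same direction, and Col5a2 and Col6a4 joined the higher ones. Those joining the lower ones were Col4a6, Col9a2, Col7a1, Col8a2, Col13a1 and Col23a1. Thus 21 of the 36 passed in neither fit, among them the chains of types I and III.

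The median log2 fold change of the tested collagens was 1.49 with all libraries and 0.15 without mutant 2, beside medians over all tested genes of 0.07 and 0.02. By class it was 2.89 for fibrillar chains, -0.17 for basement membrane chains, 1.78 for FACITs and 0.47 for the others with all libraries. Without mutant 2 these medians were 0.29, -0.41, 0.04 and -0.14. Mutant 2 had the highest FPKM of the 8 libraries in 22 of the 36 and the lowest in 7, and it exceeded the mean of the other mutants over 10-fold in 14, of which 8 were fibrillar. FPKM did not overlap between the groups in 9 of the 36, beside 30.4% of all tested genes, with 6 above and 3 below the controls, beside 14.4% and 16%. Without mutant 2 there were 7 above and 7 below, beside 20.1% and 21.6% of all genes and 41.6% in either direction. DESeq2 without mutant 2 called 9 of the 44 collagens higher and 10 lower, beside 13.2% and 15.9% of all genes.

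**Figure D2:**
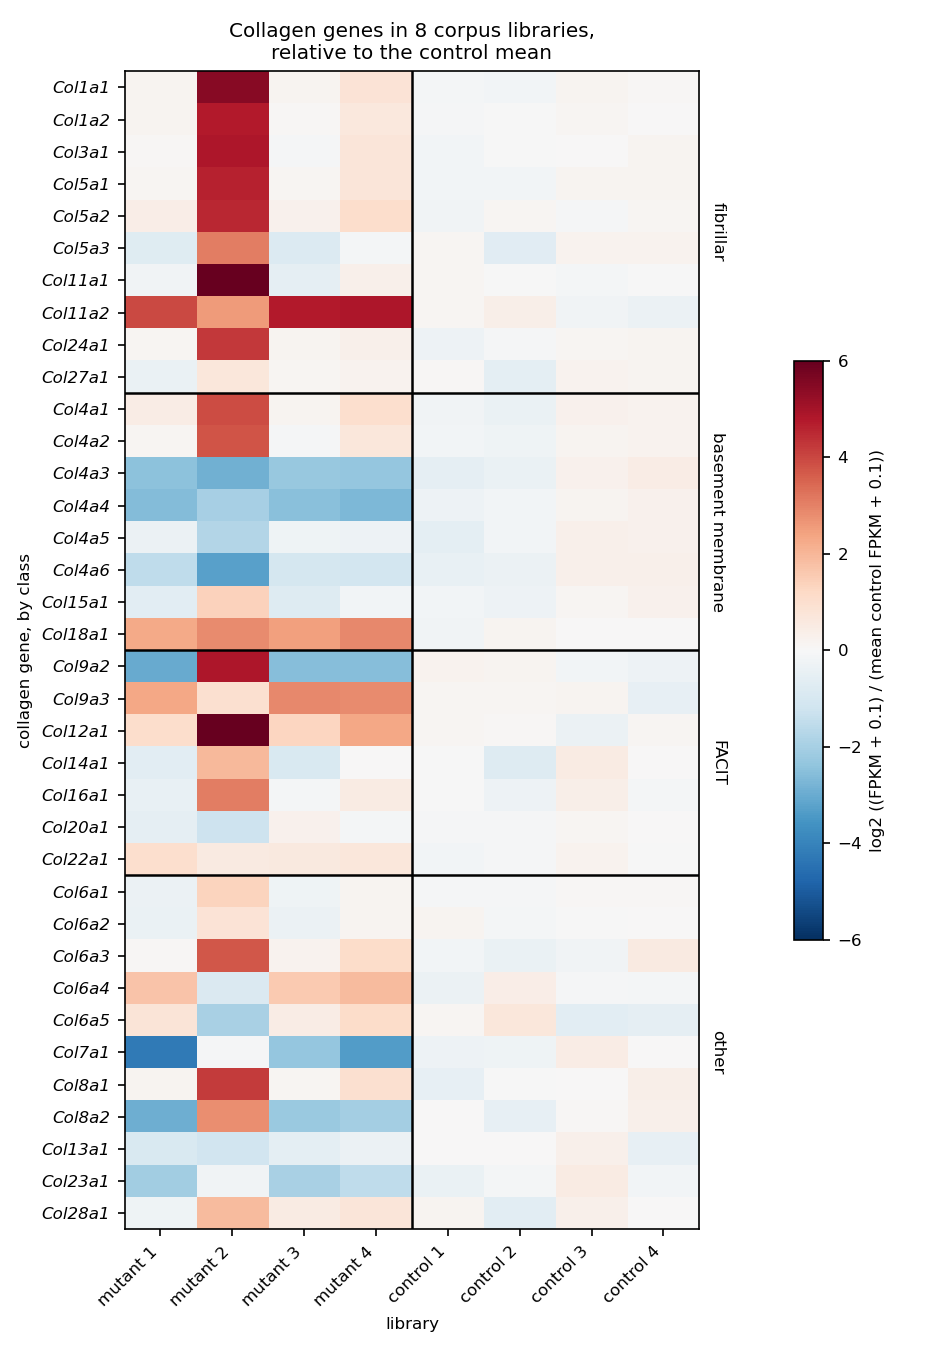
Level of each tested collagen in each library relative to the mean of the 4 controls, as log2 of the ratio of FPKM + 0.1, with genes ordered by class and mutants left of controls. Mutant 2 differs from mutants 1, 3 and 4 across most fibrillar chains, while Col11a2, Col18a1 and Col9a3 are high and Col4a3 and Col4a4 low in all 4 mutants.

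**Figure D3:**
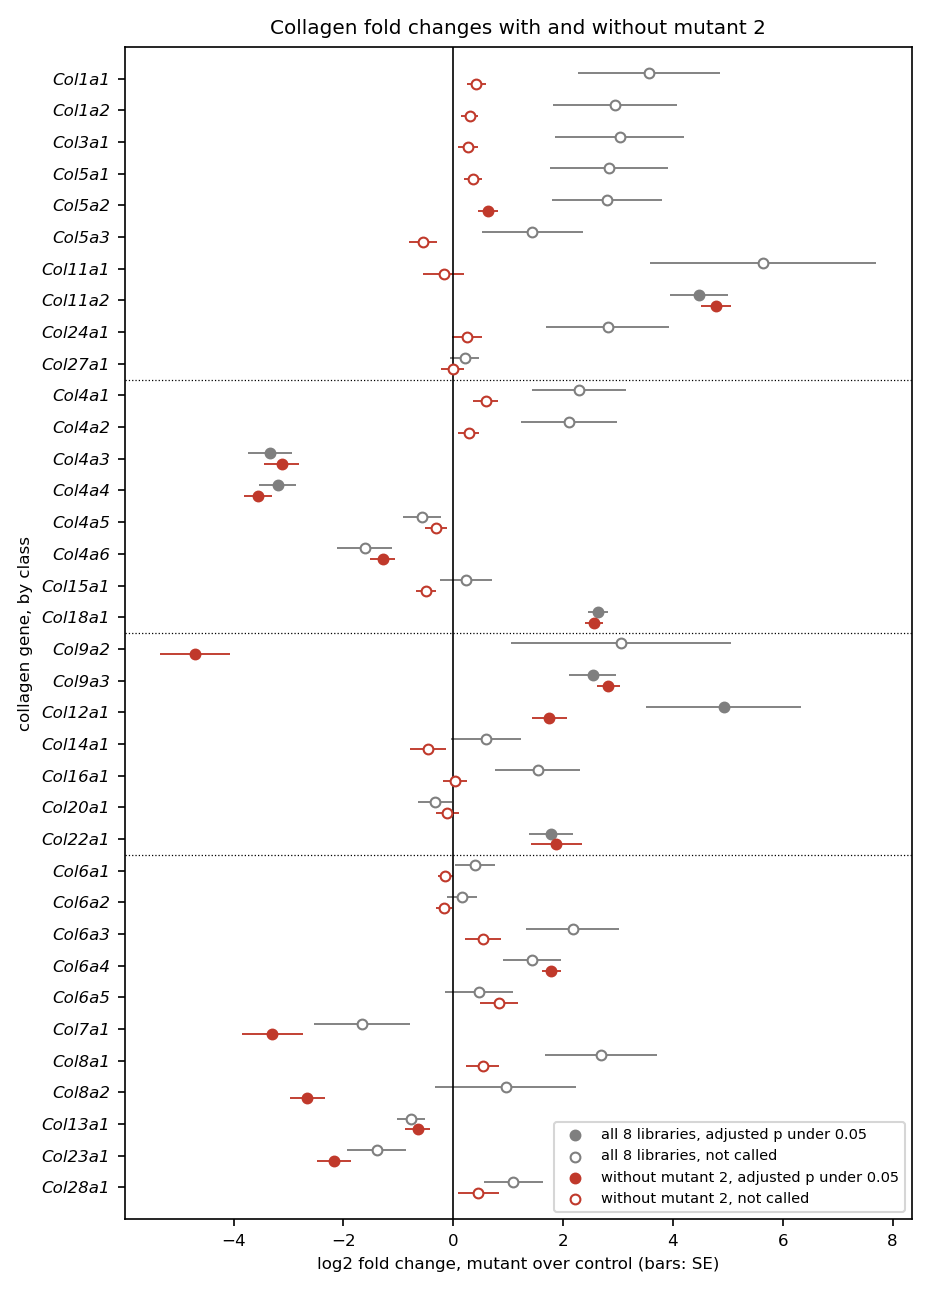
Log2 fold change, mutant over control, of each tested collagen with its SE, from all 8 libraries (grey) and without mutant 2 (red), by class. Filled points passed the adjusted p of 0.05. The wide bars and large positive values of Col1a1, Col3a1, Col5a1, Col11a1 and Col24a1 shrink or turn slightly negative (Col11a1) when mutant 2 is left out, and 9 chains change from above to below 0, of which Col9a2 and Col8a2 then passed the threshold.

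Among the fibrillar genes, 1 of 10 was higher in mutants with all libraries (Col11a2) and 2 without mutant 2 (Col11a2 and Col5a2). None was lower in either fit by edgeR or limma-voom, or by DESeq2 where it gave a p. With all libraries DESeq2 gave no p for Col1a1, Col1a2, Col3a1, Col5a1, Col5a2, Col5a3, Col11a1 and Col24a1. In edgeR 0 of 10 were lower at an unadjusted p under 0.05 as well. At that unadjusted p 8 were higher with all libraries and 3 without mutant 2. Col1a1 and Col1a2 encode the chains of type I collagen, the main fibril of most connective tissue, and Col3a1 the chain of type III, which co-assembles with it in distensible organs. Col1a1 was at 42.1, 1643, 42.1 and 67.0 FPKM in mutants and 35.1, 33.6, 42.3 and 39.9 FPKM in controls. Col1a2 was at 32.2, 791, 30.2 and 44.6 FPKM in mutants and 27.2, 28.2, 31.3 and 29.1 FPKM in controls. Col3a1 was at 51.6, 1434, 46.4 and 80.7 FPKM in mutants and 43.7, 48.3, 49.6 and 55.4 FPKM in controls. In each of the 3 genes mutant 2 was many times above all other libraries, mutant 4 came next, and mutants 1 and 3 lay within or close to the range of the controls. The log2 fold change of Col1a1 was 3.57 (SE 1.29, adjusted p = 0.0849) with all libraries and 0.42 (SE 0.17, adjusted p = 0.0883) without mutant 2. For Col1a2 these were 2.95 log2 units (SE 1.13, adjusted p = 0.0988) and 0.30 (SE 0.15, adjusted p = 0.148), and for Col3a1 3.03 (SE 1.17, adjusted p = 0.101) and 0.27 (SE 0.19, adjusted p = 0.291). The ratio of Col1a1 to Col1a2 FPKM was 1.31, 2.08, 1.39 and 1.501 in mutants and 1.29, 1.19, 1.35 and 1.37 in controls. The groups overlapped in it.

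Types V and XI nucleate fibrils and set their width. Col5a1 was at 9.40, 211, 9.27 and 14.2 FPKM in mutants and 7.48, 7.64, 9.54 and 9.45 FPKM in controls, with a log2 fold change of 2.84 (SE 1.08, adjusted p = 0.0972) with all libraries and 0.36 (SE 0.16, adjusted p = 0.117) without mutant 2. Its partner Col5a2 was at 8.603, 150.4, 7.85 and 13.7 FPKM in mutants and 5.58, 7.06, 6.21 and 7.01 FPKM in controls. All mutants lay above all controls in Col5a2, though mutant 3 by a small margin. With all libraries it differed by 2.80 log2 units (SE 1.00, adjusted p = 0.0808), and without mutant 2 it rose by 0.63 (SE 0.18, adjusted p = 0.0239). Col5a3, a chain of a less common type V trimer, was at 1.46, 22.2, 1.39 and 2.34 FPKM in mutants and 2.70, 1.54, 2.93 and 2.89 FPKM in controls, 1.44 on the log2 scale with all libraries and -0.54 without mutant 2, called in neither. The ratio of Col5a1 to Col5a2 FPKM overlapped between the groups, at 1.09, 1.40, 1.18 and 1.04 in mutants and 1.34, 1.08, 1.53 and 1.35 in controls.

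The chains of type XI, best known from cartilage, parted. Col11a2 was at 11.4, 4.18, 20.04 and 21.4 FPKM in mutants and 0.693, 0.838, 0.540 and 0.476 FPKM in controls. All 4 mutants lay above all controls, and mutant 2 was the lowest of the 4. Col11a2 rose by 4.48 (SE 0.53, adjusted p = 0.00181) on the log2 scale with all libraries and by 4.79 (SE 0.27, adjusted p = 8.43e-06) without mutant 2. Col11a1, its usual partner, was at 0.115, 29.6, 0.0741 and 0.210 FPKM in mutants and 0.171, 0.148, 0.130 and 0.149 FPKM in controls, so only mutant 2 was high. Its log2 fold change was 5.64 (SE 2.06, adjusted p = 0.0866) with all libraries and -0.17 (SE 0.38, adjusted p = 0.761) without mutant 2, called in neither. The ratio of Col11a1 to Col11a2 FPKM, a comparison added after the values were seen, was 0.0101, 7.08, 0.00370 and 0.00982 in mutants and 0.247, 0.177, 0.240 and 0.312 in controls. It was below every control in mutants 1, 3 and 4 and above every control in mutant 2. Of the cartilage markers, Acan, the aggrecan of cartilage, reached at most 0.0925 FPKM in mutants and was at 0 in every control. Every mutant thus lay above every control, at 4, 17, 8 and 8 reads in mutants 1 to 4. Matn1, Cnmd and Hapln1 reached at most 0.0609, 0 and 0.0688 FPKM in mutants and 0.0325, 0.0321 and 0.120 FPKM in controls. Hapln1 in mutants 1, 3 and 4 lay below every control, at no more than 12 reads in any library. Matn3, another matrix protein of cartilage, was at 0.0220, 0.323, 0 and 0.0282 FPKM in mutants and 0, 0.0863, 0.0844 and 0.0589 FPKM in controls, highest in mutant 2 with 24 reads. Sox9, a transcription factor that gut epithelium also uses, was at 31.2, 39.7, 38.9 and 40.9 FPKM in mutants against 19.4, 22.4, 14.1 and 16.7 FPKM in controls. Among the 6 listed cartilage markers only Sox9 was expressed enough to be tested by edgeR, and it was higher. DESeq2, run without the filter on low counts, called 2 of the 6 higher with all libraries and 2 without mutant 2.

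The Col11a2 start in RefSeq (GRCm38.p6) lies 299 bases upstream of the start in the count table (chr17:34039437-34066685, plus strand). The 250 bases before the RefSeq start are shown because Col11a2 had the largest rise of the collagens called without mutant 2. They were read on the plus strand, chr17:34038888-34039137, and capitals mark matches, on either strand, to a short cyclic AMP response motif (TGACG, or CGTCA on the other strand), GC boxes (GGGCGG) and a TATA box (TATAAA).
Col11a2 upstream: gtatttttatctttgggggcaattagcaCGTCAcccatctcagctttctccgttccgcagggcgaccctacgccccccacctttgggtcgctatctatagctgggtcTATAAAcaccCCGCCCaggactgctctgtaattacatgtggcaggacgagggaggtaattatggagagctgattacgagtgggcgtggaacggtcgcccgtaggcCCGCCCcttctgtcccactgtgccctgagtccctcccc
The short motif was present in 10.5% of 38 RefSeq windows of 300 bases (250 before and 50 after a start) of 35 collagen genes and in 20.8% of all 32851 windows. The full motif TGACGTCA, which contains the short one, was present in 1 collagen window (2.63%), that of Col24a1, and in 1.79% of all windows. GC boxes were in 60.5% of collagen and 35.7% of all windows. TATA boxes were in 13.2% and 13.6% of them. A match is a letter match only.

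Of the remaining fibrillar genes, Col24a1, a minor fibrillar chain, was at 0.331, 7.30, 0.344 and 0.390 FPKM in mutants and 0.221, 0.282, 0.334 and 0.349 FPKM in controls, again high in mutant 2 alone. Its log2 fold change was 2.81 (SE 1.12, adjusted p = 0.109) with all libraries and 0.26 (SE 0.27, adjusted p = 0.504) without mutant 2. Col27a1, another minor chain, was at 2.10, 4.59, 3.05 and 3.25 FPKM in mutants and 2.97, 1.85, 3.28 and 3.10 FPKM in controls, and its log2 fold changes of 0.21 with all libraries and -0.01 without mutant 2 were not called. Col2a1, the main collagen of cartilage, had 1 read each in mutants 2 and 4 and none elsewhere, and was not tested.

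Most fibroblast markers were also high in mutant 2, which had been set apart beforehand for its fibroblast genes, so they are no separate result. By gene, the median of their ratios of mutant 2 to the mean of the other mutants was 4.33. For Col1a1, Col1a2 and Col3a1 that ratio was 32.6, 22.2 and 24.1. The 10 fibroblast markers summed to 94.5, 470.3, 109 and 138 FPKM in mutants and 177, 151, 176 and 152 FPKM in controls, with 9 of 10 highest in mutant 2. Mutants 1, 3 and 4 were below every control in that sum. With all libraries Pdgfra, a growth factor receptor of fibroblasts, was higher and the other 9 were not called, with a median log2 fold change of 1.12. Without mutant 2 Pdgfra was higher and Fbln1, Dpt and Cd34 were lower, with log2 fold changes of -1.13, -1.45 and -0.96 and a list median of -0.16. The 6 pericyte markers summed to 24.2, 164, 31.6 and 40.3 FPKM in mutants and 68.1, 59.6, 75.3 and 82.9 FPKM in controls, and the 8 endothelial markers to 21.2, 168, 22.1 and 23.01 FPKM in mutants and 37.0, 31.8, 41.4 and 37.1 FPKM in controls, all 8 of them highest in mutant 2. By edgeR no pericyte or endothelial marker was called with all libraries (0 at an unadjusted p under 0.05, 0 in DESeq2, and 3 pericyte and 5 endothelial markers lower in limma-voom). Without mutant 2, 3 of the 6 pericyte and 6 of the 8 endothelial markers were lower. The 5 macrophage markers summed to 75.0, 282, 51.5 and 85.3 FPKM in mutants and 56.4, 60.4, 50.7 and 45.4 FPKM in controls. In neither fit was one called by edgeR, with 2 higher at an unadjusted p under 0.05 in each, and DESeq2 called 1 higher with all libraries and 0 without mutant 2 (limma-voom 0 in both). No listed gene of these 4 sets was at 0 in every library. Of the 6 myofibroblast markers, with sums of 76.0, 228, 100.1 and 189.6 FPKM in mutants and 60.6, 72.8, 88.2 and 89.2 FPKM in controls, Postn, a matrix protein bound to fibrillar collagen, was higher with all libraries and the other 5 were not called. Without mutant 2, Postn was higher and Thbs2 lower (log2 fold change -0.72).

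Most of the sum of the 6 mesothelium markers, 1175, 186, 968 and 1016 FPKM in mutants and 1333, 1540.2, 785 and 861 FPKM in controls, was Krt19, a keratin that gut epithelium shares, at 1164, 156, 948 and 1001 FPKM in mutants and 1313, 1525, 768 and 842 FPKM in controls. Upk3b, more specific to mesothelium, was at 0.0188, 1.78, 0.0973 and 0.313 FPKM in mutants and 2.47, 2.28, 2.00 and 1.59 FPKM in controls. In mutant 2 Upk3b, Lrrn4 and Wt1 were at 12.5, 29.8 and 73.1 times the mean of the other mutants. Of 5 tested mesothelium markers 1 (Msln) was higher and 1 (Gpm6a) lower with all libraries, and 1 and 3 without mutant 2. The 6 adipocyte markers summed to 18.8, 14.2, 22.5 and 18.4 FPKM in mutants and 85.7, 65.3, 79.2 and 88.2 FPKM in controls, with 2 lower in both fits. The 6 glial markers summed to 3.40, 14.5, 3.00 and 2.97 FPKM in mutants and 6.85, 4.69, 6.69 and 6.197 FPKM in controls, with 2 lower with all libraries and 4 without mutant 2. The part of these cells in the collagen values was not tested, and in bulk RNA fewer cells of a type and less RNA per cell cannot be told apart.

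Basement membrane chains went both ways. Of 8 tested, Col18a1 was higher and Col4a3 and Col4a4 lower in mutants in both fits, and Col4a6 was lower as well without mutant 2. Type IV collagen is assembled as 3 kinds of trimer: Col4a1 with Col4a2, found in all basement membranes, Col4a3 with Col4a4 and Col4a5, and Col4a5 with Col4a6, which is known from epithelium and smooth muscle. Col4a1 was at 32.5, 355, 26.2 and 47.7 FPKM in mutants and 20.5, 17.9, 28.2 and 27.5 FPKM in controls. Col4a2 was at 23.5, 296, 20.4 and 35.4 FPKM in mutants and 19.1, 18.1, 24.6 and 25.2 FPKM in controls. Mutant 2 was highest in both, mutant 4 second, and mutant 3 lay within the controls. The log2 fold change of Col4a1 was 2.29 (SE 0.85, adjusted p = 0.0913) with all libraries and 0.59 (SE 0.22, adjusted p = 0.0680) without mutant 2, and that of Col4a2 was 2.10 (SE 0.88, adjusted p = 0.123) and 0.28 (SE 0.20, adjusted p = 0.306). The ratio of Col4a1 to Col4a2 FPKM was 1.38, 1.201, 1.28 and 1.35 in mutants and 1.08, 0.985, 1.15 and 1.09 in controls, so it was above every control in all 4 mutants, mutant 2 included. The annotated starts of the 2 genes overlap head to head on chromosome 8, and without a stated strand setting reads there cannot be assigned.

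Of the second trimer, Col4a3 and Col4a4 fell. Col4a3 was at 0.103, 0.0489, 0.125 and 0.119 FPKM in mutants and 0.663, 0.737, 1.23 and 1.40 FPKM in controls. Col4a4 was at 0.0876, 0.191, 0.101 and 0.0800 FPKM in mutants and 0.828, 0.925, 1.205 and 1.27 FPKM in controls. In both genes all 4 mutants, mutant 2 included, lay below all controls. Col4a3 fell, with a log2 fold change of -3.34 (SE 0.40, adjusted p = 0.00178) with all libraries and -3.12 (SE 0.32, adjusted p = 5.21e-05) without mutant 2. Col4a4 fell by a like amount, -3.20 log2 units (SE 0.34, adjusted p = 0.00137) with all libraries and -3.56 (SE 0.25, adjusted p = 6.91e-06) without mutant 2. Read counts behind them were 31, 12, 29 and 28 in mutants and 106, 113, 192 and 235 in controls for Col4a3. Those for Col4a4 were 28, 50, 25 and 20 in mutants and 141, 151, 201 and 227 in controls. Of Col4a3's exonic bases 5.65% overlap the gene C430014B12Rik, which held 77 reads in all. The ratio of Col4a3 to Col4a4 FPKM was 1.18, 0.256, 1.24 and 1.49 in mutants and 0.800, 0.797, 1.02 and 1.10 in controls, with mutant 2 apart and the others above the controls by a small margin.

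Col4a5 and Col4a6 differed from each other. Col4a5, a chain of both remaining trimers, was at 4.83, 1.77, 5.16 and 5.004 FPKM in mutants and 4.09, 5.59, 7.71 and 7.43 FPKM in controls. The groups overlapped, and mutant 2 was the lowest library. On the log2 scale it was at -0.57 (SE 0.35, adjusted p = 0.272) with all libraries and -0.32 (SE 0.19, adjusted p = 0.240) without mutant 2. Col4a6 was at 1.01, 0.234, 1.44 and 1.39 FPKM in mutants and 2.24, 2.45, 3.90 and 3.82 FPKM in controls, with every mutant below every control. It was at -1.61 (SE 0.50, adjusted p = 0.0549) with all libraries, and it fell without mutant 2, with a log2 fold change of -1.28 (SE 0.23, adjusted p = 0.00176). DESeq2 called Col4a6 lower with all libraries as well (log2 fold change -1.61, adjusted p = 0.00908). It was called in 6 of 20 fits. The ratio of Col4a5 to Col4a6 FPKM was 4.77, 7.53, 3.59 and 3.59 in mutants and 1.82, 2.29, 1.98 and 1.94 in controls, above every control in all mutants. Smooth muscle markers moved beside these chains: the 10 listed summed to 103, 284, 189.8 and 315 FPKM in mutants and 1444, 1218, 1003 and 978 FPKM in controls, and all 10 were lower in mutants in both fits. Myh11, the smooth muscle myosin heavy chain, was at 10.3, 6.34, 19.7 and 28.0 FPKM in mutants and 118, 112, 116 and 120.3 FPKM in controls. Their part in the fall of Col4a6 was not tested.

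**Figure D4:**
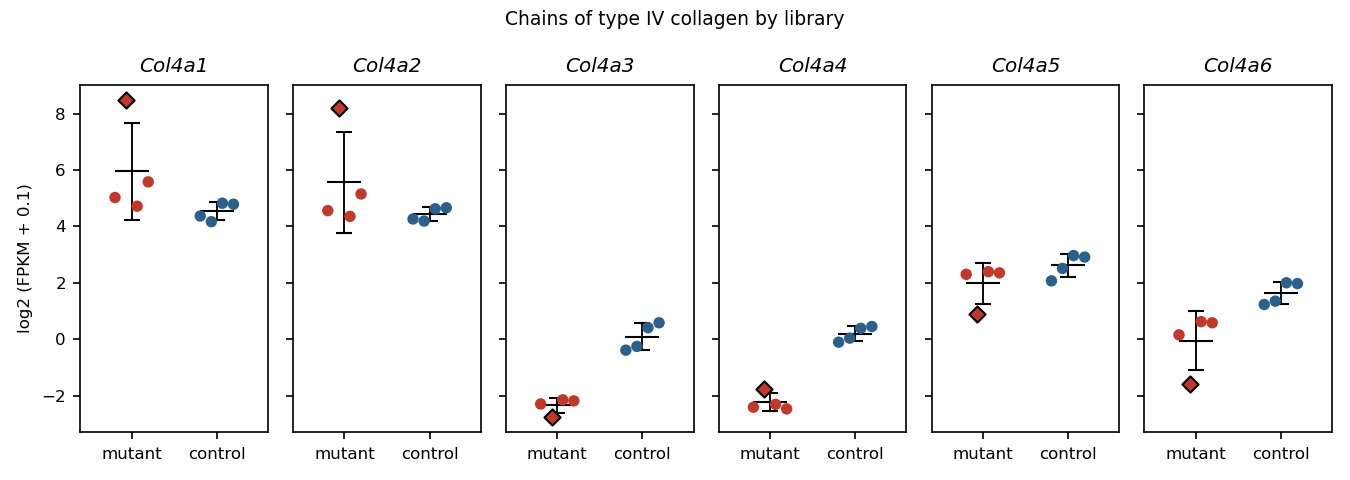
The 6 chains of type IV collagen as log2(FPKM + 0.1) per library, mutants left and controls right. Diamonds mark mutant 2 and bars show mean and SD (n = 4 each). Col4a3, Col4a4 and Col4a6 lie below every control in all mutants, while Col4a1 and Col4a2 are far higher in mutant 2 alone.

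The 3 pairs of type IV genes each lie head to head in the genome, and bases between the starts are shown for the 2 pairs that hold a chain that fell. Col4a4 (chr1:82448423-82586849, minus strand) and Col4a3 (chr1:82586921-82722059, plus strand) are separated by 71 bases, while Col4a6 (chrX:141165403-141474076, minus strand) and Col4a5 (chrX:141475385-141689234, plus strand) are 1308 bases apart in the count table's coordinates. The sequences are from RefSeq windows on GRCm38.p6, read 5′ to 3′ on the strand given, and they end before the starts of both RefSeq and the count table. Capitals mark the same motifs as for Col11a2, with the CCAAT box (CCAAT) added. The stretch chr1:82586850-82586920, minus strand, held none of them.
Col4a4 to Col4a3: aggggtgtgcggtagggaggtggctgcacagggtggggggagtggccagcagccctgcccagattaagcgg
The stretch upstream of Col4a6 is chrX:141474096-141474326, minus strand, and that upstream of Col4a5 is chrX:141475169-141475369, plus strand.
Col4a6 upstream: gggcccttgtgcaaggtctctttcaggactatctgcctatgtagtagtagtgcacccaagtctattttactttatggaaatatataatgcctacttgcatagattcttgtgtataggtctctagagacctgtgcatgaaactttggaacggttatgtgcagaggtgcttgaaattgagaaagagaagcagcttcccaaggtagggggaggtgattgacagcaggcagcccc
Col4a5 upstream: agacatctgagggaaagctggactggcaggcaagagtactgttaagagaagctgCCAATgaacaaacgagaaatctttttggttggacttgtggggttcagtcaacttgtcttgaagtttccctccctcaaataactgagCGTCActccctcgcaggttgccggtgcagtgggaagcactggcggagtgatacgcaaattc
The Col4a6 stretch held no match, and the Col4a5 stretch held a CCAAT box and the short cyclic AMP response motif. CCAAT was in 34.2% of collagen and 37.4% of all windows.

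Types XV and XVIII, which link basement membranes to the matrix beneath them, also parted. Col18a1, whose C-terminal fragment is endostatin, was at 48.4, 72.3, 55.0 and 75.3 FPKM in mutants and 8.54, 11.3, 10.3 and 10.1 FPKM in controls. All mutants lay several-fold above all controls, and mutant 2 lay among the other mutants. Col18a1 rose by 2.64 (SE 0.19, adjusted p = 0.000536) on the log2 scale with all libraries and by 2.56 (SE 0.16, adjusted p = 4.11e-06) without mutant 2, the smallest adjusted p of the collagens with all libraries. Its mean in mutants 1, 3 and 4 was 5.92 times the control mean. Col15a1 was at 8.82, 35.8, 8.10 and 12.4 FPKM in mutants and 12.2, 11.3, 15.2 and 16.7 FPKM in controls, high in mutant 2 and low in mutants 1 and 3. On the log2 scale it differed by 0.23 (SE 0.47, adjusted p = 0.751) with all libraries and -0.50 (SE 0.18, adjusted p = 0.0536) without mutant 2.

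Among FACITs, 3 of 7 tested were higher with all libraries (Col9a3, Col12a1 and Col22a1), and without mutant 2 these 3 were higher and Col9a2 lower. Type IX collagen is a trimer of Col9a1, Col9a2 and Col9a3 known from the surface of cartilage fibrils. Col9a3 was at 4.99, 1.87, 7.37 and 7.03 FPKM in mutants and 0.987, 1.01, 1.02 and 0.614 FPKM in controls. All mutants lay above all controls, mutant 2 the lowest of them. Col9a3 rose by 2.54 log2 units (SE 0.43, adjusted p = 0.00625) with all libraries and by 2.83 (SE 0.21, adjusted p = 8.66e-06) without mutant 2. Col9a2 had 0, 1813, 3 and 3 reads in mutants and 42, 39, 31 and 30 reads in controls. That was 0, 23.8, 0.0416 and 0.0411 FPKM in mutants and 0.846, 0.819, 0.637 and 0.574 FPKM in controls. It was close to absent in mutants 1, 3 and 4, and mutant 2 held more than all other libraries together. Its log2 fold change was 3.05 (SE 2.00, adjusted p = 0.304) with all libraries, and without mutant 2 it fell, at -4.70 (SE 0.63, adjusted p = 0.000230). Col9a1 had at most 5 reads in any library and was not tested. Of the exonic bases of Col9a3, 6.07% overlap Tcfl5, with 17 reads in all.

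Col12a1, a FACIT of fibrils under tension, was at 2.12, 109.9, 2.54 and 5.28 FPKM in mutants and 1.09, 1.02, 0.748 and 1.07 FPKM in controls. All mutants lay above all controls, and mutant 2 was far above the rest. It rose by 4.93 log2 units (SE 1.41, adjusted p = 0.0422) with all libraries and by 1.75 (SE 0.32, adjusted p = 0.00394) without mutant 2. With all libraries its call was lost when any 1 control or mutant 4 was left out, with adjusted p = 0.111, 0.105, 0.114 and 0.1002 without controls 1 to 4 and 0.0535 without mutant 4. Col22a1, a FACIT of tissue junctions, had 46, 21, 21 and 25 reads in mutants and 3, 4, 8 and 5 reads in controls. Each mutant exceeded each control, at counts of at most 46. It rose by 1.78 log2 units (SE 0.40, adjusted p = 0.0176) with all libraries and by 1.88 (SE 0.47, adjusted p = 0.00919) without mutant 2. That call was lost without control 1, 2 or 4 (adjusted p = 0.0552, 0.0571 and 0.0518).

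The other 3 tested FACITs passed in neither fit. Col14a1, a FACIT common in fibroblast matrix, was at 2.22, 13.4, 1.81 and 3.498 FPKM in mutants and 3.40, 1.96, 4.98 and 3.49 FPKM in controls. Col16a1 was at 4.83, 55.6, 6.01 and 9.21 FPKM in mutants and 6.50, 5.29, 8.27 and 5.98 FPKM in controls. Both were high in mutant 2, with the other mutants overlapping the controls. Col20a1 was at 1.23, 0.719, 2.20 and 1.64 FPKM in mutants and 1.70, 1.72, 1.98 and 1.85 FPKM in controls, lowest in mutant 2. Their log2 fold changes with all libraries were 0.60, 1.54 and -0.33 in that order. Without mutant 2 they were -0.46, 0.04 and -0.11. Col19a1 had at most 1 read in any library and was not tested.

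Of the 11 tested collagens of other types, none was called by edgeR with all libraries, where 3 were higher and 2 lower at an unadjusted p under 0.05. For this class, which holds 16 genes in all, DESeq2 called 2 higher and 2 lower and limma-voom 1 higher and 4 lower in those 8 libraries, beside 12.2% and 12.6% of all genes with an adjusted p in DESeq2. In those libraries DESeq2 gave no p for Col6a3, Col7a1, Col8a1, Col8a2 and Col17a1. Without mutant 2, Col6a4 was higher and Col7a1, Col8a2, Col13a1 and Col23a1 were lower. Type VI collagen forms beaded filaments around cells, mostly from Col6a1, Col6a2 and Col6a3. Col6a1 was at 35.5, 116, 37.4 and 50.4 FPKM in mutants and 42.6, 43.4, 47.4 and 47.5 FPKM in controls. Col6a2 was at 17.7, 41.5, 18.4 and 25.8 FPKM in mutants and 25.6, 21.1, 22.4 and 23.5 FPKM in controls. Col6a3 was at 2.54, 33.4, 2.82 and 5.34 FPKM in mutants and 2.17, 1.83, 2.12 and 3.63 FPKM in controls. Mutant 2 was highest in each, by a smaller margin in Col6a1 and Col6a2 than in Col6a3, and the other mutants overlapped the controls. Their log2 fold changes were 0.40 (SE 0.37, adjusted p = 0.466), 0.16 (SE 0.27, adjusted p = 0.709) and 2.17 (SE 0.85, adjusted p = 0.104) with all libraries. No main chain of type VI passed in either fit. Without mutant 2 the log2 fold changes were -0.14, -0.17 and 0.55. The ratio of Col6a1 to Col6a2 FPKM was 2.00, 2.79, 2.03 and 1.95 in mutants and 1.67, 2.06, 2.11 and 2.02 in controls. That of Col6a3 to Col6a1 was 0.0716, 0.288, 0.0756 and 0.106 in mutants and 0.0510, 0.0420, 0.0447 and 0.0763 in controls. Both ratios overlapped between the groups and were highest in mutant 2.

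Col6a4 and Col6a5 are chains of type VI that are thought to take the place of Col6a3. Col6a4 was at 6.85, 1.05, 6.28 and 7.77 FPKM in mutants and 1.59, 2.74, 1.89 and 1.87 FPKM in controls. Mutants 1, 3 and 4 lay above every control, and mutant 2 lay below every control. The log2 fold change of Col6a4 was 1.44 (SE 0.53, adjusted p = 0.0873) with all libraries, and without mutant 2 it rose by 1.78 (SE 0.17, adjusted p = 4.18e-05). Col6a5 was at 3.53, 0.436, 2.72 and 4.41 FPKM in mutants and 2.19, 3.23, 1.25 and 1.32 FPKM in controls, lowest in mutant 2, and was called in neither fit, with log2 fold changes of 0.47 with all libraries and 0.83 without mutant 2.

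Col7a1, which makes the anchoring fibrils under squamous epithelium, was at 0.268, 6.61, 1.29 and 0.586 FPKM in mutants and 5.58, 5.78, 9.40 and 6.93 FPKM in controls. Mutants 1, 3 and 4 lay below every control, and mutant 2 lay among the controls. The log2 fold change was -1.66 (SE 0.88, adjusted p = 0.207) with all libraries, and without mutant 2 it fell, at -3.29 (SE 0.55, adjusted p = 0.00511). Squamous transcripts, with sums of the 7 markers of 0.798, 0.840, 312 and 1.65 FPKM in mutants and 0.956, 0.991, 125 and 0.773 FPKM in controls, were high in mutant 3 and control 3, which were the highest of mutants 1, 3 and 4 and of the controls in Col7a1. Col17a1, a collagen of the hemidesmosomes of squamous epithelium, was not tested, with 10, 28, 316 and 9 reads in mutants and 3, 1, 40 and 1 reads in controls. Its reads were most numerous in the 2 libraries with squamous transcripts. With mutant 3, control 3 and mutant 2 all left out, Col7a1 was still lower (log2 fold change -3.86, adjusted p = 8.20e-05).

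Type VIII collagen, a short-chain collagen of vessels, is made of Col8a1 and Col8a2. Col8a1 was at 0.665, 12.5, 0.625 and 1.22 FPKM in mutants and 0.382, 0.573, 0.593 and 0.756 FPKM in controls. Col8a2 was at 0.200, 15.9, 0.383 and 0.463 FPKM in mutants and 2.18, 1.54, 2.31 and 2.69 FPKM in controls. Mutant 2 was highest in both, but the other mutants overlapped the controls in Col8a1 and lay below them all in Col8a2. Col8a1 had a log2 fold change of 2.70 (SE 1.02, adjusted p = 0.0964) with all libraries and 0.54 (SE 0.30, adjusted p = 0.192) without mutant 2. Col8a2 was at 0.95 log2 units (SE 1.28, adjusted p = 0.624) with all libraries, and without mutant 2 it fell, at -2.66 (SE 0.31, adjusted p = 0.000119). The ratio of Col8a1 to Col8a2 FPKM was 3.33, 0.786, 1.63 and 2.64 in mutants and 0.175, 0.373, 0.257 and 0.281 in controls, above every control in all 4 mutants. A ratio within a library shows that the chains changed unequally, not which of them did.

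Types XIII and XXIII are collagens that span the cell membrane. Col23a1 was at 0.226, 1.10, 0.255 and 0.377 FPKM in mutants and 0.967, 1.18, 1.86 and 1.13 FPKM in controls. Mutants 1, 3 and 4 lay below every control, with mutant 2 among the controls. The fold change was -1.40 (SE 0.53, adjusted p = 0.0978) on the log2 scale with all libraries, and without mutant 2 it fell, at -2.17 (SE 0.30, adjusted p = 0.000330). Col13a1 was at 1.09, 0.909, 1.38 and 1.63 FPKM in mutants and 2.19, 2.19, 2.67 and 1.48 FPKM in controls, where mutant 4 overlapped control 4. Its log2 fold change was -0.77 (SE 0.26, adjusted p = 0.0675) with all libraries and -0.64 (SE 0.23, adjusted p = 0.0495) without mutant 2, just inside the threshold. Col28a1 was at 0.305, 1.70, 0.578 and 0.692 FPKM in mutants and 0.432, 0.212, 0.493 and 0.386 FPKM in controls and passed in neither fit, with log2 fold changes of 1.10 with all libraries and 0.45 without mutant 2. The untested members of this class were Col6a6, Col10a1, Col17a1, Col25a1 and Col26a1. Col10a1, the collagen of hypertrophic cartilage, had 0, 51, 11 and 36 reads in mutants and 1, 2, 0 and 2 reads in controls, and DESeq2, run without that filter, gave it an adjusted p of 0.0300. It lies within another gene, Nt5dc1, so its reads are uncertain. Col6a6, Col25a1 and Col26a1 had at most 8, 9 and 6 reads in a library.

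**Figure D5:**
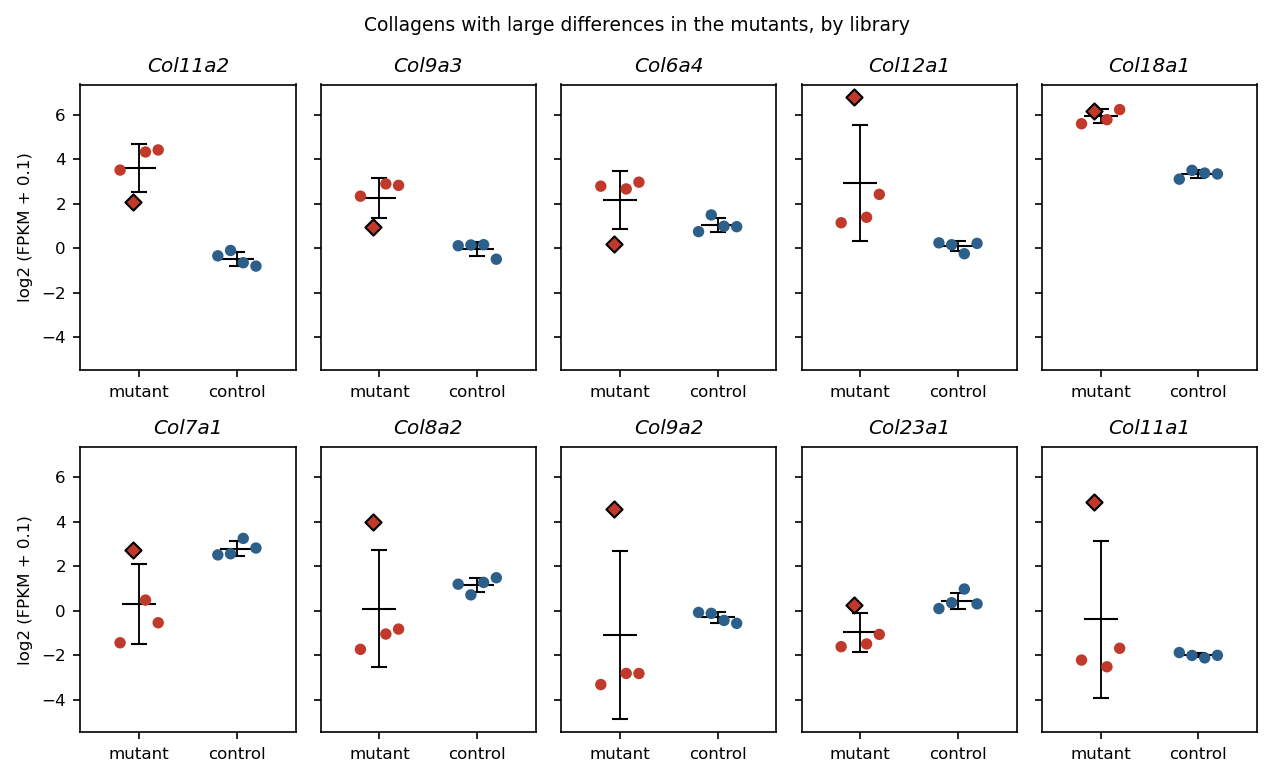
Collagens with large differences, as log2(FPKM + 0.1) per library, mutants left and controls right. Diamonds mark mutant 2 and bars show mean and SD (n = 4 each). Col11a2, Col9a3, Col12a1 and Col18a1 are above every control in all mutants, while in Col7a1, Col8a2, Col9a2 and Col23a1 mutants 1, 3 and 4 lie below every control and mutant 2 does not.

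When each library was scaled by its plain total instead of TMM, the median log2 fold change over all genes was 0.76 with all libraries, against 0.07. On that scaling 22 of the 36 collagens were higher and the same 2 lower, beside 59.3% and 4.56% of all tested genes. The 7 collagens called with all libraries kept their calls. Without mutant 2 it gave 23 higher and 7 lower, beside 64.1% and 7.05% of all genes, and the 7 higher and 7 of the 8 lower ones kept their calls, with Col13a1 the exception at a log2 fold change of 0.06. With all libraries the 17 that were called on the plain totals alone were Col1a1, Col1a2, Col3a1, Col5a1, Col5a2, Col11a1, Col24a1, Col27a1, Col4a1, Col4a2, Col16a1, Col6a1, Col6a2, Col6a3, Col6a4, Col8a1 and Col28a1. Every call, and every missed one, is therefore relative to the other genes of the library.

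Genes that process and bind collagen were followed in 7 lists, to be read beside the 20.2% of all tested genes called with all libraries and the 33.5% called without mutant 2. Of 18 tested genes of procollagen hydroxylation and folding, 2 were higher and 1 lower with all libraries. Plod3, a lysyl hydroxylase that also adds glucose to collagen, rose by 1.07 log2 units (SE 0.32, adjusted p = 0.0474) and Colgalt1, a collagen galactosyltransferase, by 0.86 (SE 0.25, adjusted p = 0.0465). Its paralog Colgalt2 fell, at -1.59 log2 units (SE 0.37, adjusted p = 0.0212). Without mutant 2, 3 were higher and 2 lower, with Fkbp10, a folding factor, added at 0.63 log2 units (SE 0.17, adjusted p = 0.0145) and P4ha2, a prolyl hydroxylase chain, at -1.34 (SE 0.25, adjusted p = 0.00336). Over these 18 the median log2 fold change was 0.97 with all libraries and 0.15 without mutant 2. None of the 6 tested genes of propeptide cleavage was called in either fit (edgeR), with a median of 1.36 and -0.03. At an unadjusted edgeR p under 0.05 1 of them was higher in each fit, and DESeq2 called none of them with all libraries and 1 higher without mutant 2.

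Of the 7 cross-linking genes, 2 were higher with all libraries and 3 without mutant 2. The median log2 fold change of the tested genes of this list was 1.85 with all libraries and 0.79 without mutant 2. Lox, the lysyl oxidase that starts collagen cross-links, was at 4.73, 100.3, 7.54 and 6.18 FPKM in mutants and 0.894, 1.88, 1.72 and 1.48 FPKM in controls. All mutants lay above all controls. Lox rose by 4.31 log2 units (SE 1.12, adjusted p = 0.0305) with all libraries and by 2.04 (SE 0.24, adjusted p = 0.000160) without mutant 2. Tgm2, a transglutaminase that cross-links matrix, rose by 1.35 log2 units (SE 0.22, adjusted p = 0.00587) with all libraries and by 1.33 (SE 0.22, adjusted p = 0.00176) without mutant 2. Loxl2, a lysyl oxidase of type IV collagen, was at 2.86 log2 units (SE 0.89, adjusted p = 0.0540) with all libraries and rose by 1.08 (SE 0.17, adjusted p = 0.000683) without mutant 2.

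Of 9 tested collagen receptors, 1 was higher with all libraries, and 3 were higher and 1 lower without mutant 2. The median log2 fold change of the tested genes of this list was 0.31 with all libraries and 0.13 without mutant 2. Itga2, the collagen-binding integrin chain of epithelium and platelets, was at 4.29, 7.40, 1.66 and 4.47 FPKM in mutants and 0.341, 0.182, 0.250 and 0.265 FPKM in controls, with no overlap. It rose by 4.09 log2 units (SE 0.46, adjusted p = 0.00162) with all libraries and by 3.73 (SE 0.36, adjusted p = 8.78e-05) without mutant 2. Mrc2, which takes up collagen, and Lair1, an inhibitory collagen receptor of leukocytes, rose without mutant 2 by 0.61 log2 units (SE 0.16, adjusted p = 0.0134) and 1.03 (SE 0.30, adjusted p = 0.0218). Ddr2, a fibrillar collagen receptor of mesenchyme, fell in that fit, at -0.70 log2 units (SE 0.16, adjusted p = 0.00539).

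Of 7 tested small proteoglycans, which coat fibrils, 1 was higher and 1 lower with all libraries, and 2 and 2 without mutant 2. The median log2 fold change of the tested genes of this list was 0.51 with all libraries and 0.02 without mutant 2. Fmod (fibromodulin) was at 3.96, 57.3, 2.68 and 3.98 FPKM in mutants and 1.23, 1.04, 0.962 and 1.16 FPKM in controls, and it rose by 3.95 log2 units (SE 1.09, adjusted p = 0.0377) with all libraries and by 1.68 (SE 0.20, adjusted p = 0.000138) without mutant 2. Ogn (osteoglycin) was at 33.5, 14.6, 19.98 and 17.7 FPKM in mutants and 46.1, 42.1, 50.2 and 45.3 FPKM in controls, and it fell, at -1.10 log2 units (SE 0.24, adjusted p = 0.0174) and -0.95 (SE 0.20, adjusted p = 0.00482). Neither gene overlapped between the groups. Without mutant 2, Bgn (biglycan) rose by 0.71 log2 units (SE 0.17, adjusted p = 0.00876) and Aspn (asporin) fell, at -0.86 (SE 0.18, adjusted p = 0.00317). Decorin and lumican, which also stand in the fibroblast list, were called in neither fit.

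Of 12 tested TGF-beta ligands and regulators, a pathway that raises collagen transcription, 1 was higher and 2 lower with all libraries, and 3 and 5 without mutant 2. Ccn2, also listed, was not found under that symbol in the deposited counts and is not covered. The median log2 fold change of the tested genes of this list was 0.52 with all libraries and 0.04 without mutant 2. Ltbp2, a microfibril protein, was at 2.21, 76.5, 1.55 and 2.4998 FPKM in mutants and 0.312, 0.151, 0.148 and 0.123 FPKM in controls. It rose by 6.81 log2 units (SE 1.61, adjusted p = 0.0221) with all libraries and by 3.502 (SE 0.31, adjusted p = 2.34e-05) without mutant 2, with every mutant above every control. Smad7, an inhibitor of the pathway, was at 6.88, 6.91, 7.89 and 7.14 FPKM in mutants and 12.8, 12.9, 12.2 and 13.6 FPKM in controls and fell, at -0.84 log2 units (SE 0.09, adjusted p = 0.00137) and -0.82 (SE 0.102, adjusted p = 0.000159). Ltbp4 fell as well, at -0.58 log2 units (SE 0.17, adjusted p = 0.0434) and -0.51 (SE 0.15, adjusted p = 0.0250). The other changes without mutant 2 were rises of Tgfb1 and Tgfbr2 (0.54 and 0.42, adjusted p = 0.0312 and 0.0202) and falls of Ltbp1, Ltbp3 and Tgfb3 (-0.80, -0.68 and -0.70, adjusted p = 0.00196, 0.0132 and 0.0385), all log2 fold changes.

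Of the 8 basement membrane partners of type IV collagen, Lama5, a laminin chain of epithelial basement membranes, was higher with all libraries and 4 were higher without mutant 2. The median log2 fold change of the tested genes of this list was 1.42 with all libraries and 0.44 without mutant 2. Lama5 was at 12.9, 20.7, 7.86 and 11.1 FPKM in mutants and 4.73, 4.62, 5.18 and 5.82 FPKM in controls and rose by 1.37 log2 units (SE 0.27, adjusted p = 0.0122) with all libraries and by 1.06 (SE 0.16, adjusted p = 0.000523) without mutant 2. The laminin chains Lamb1 and Lamc1 and Sparc, a matrix protein that binds collagen, joined it without mutant 2 (log2 fold changes 0.53, 0.42 and 0.47, adjusted p = 0.0331, 0.0414 and 0.0273). Sparc was at 79.8, 1451, 74.6 and 112 FPKM in mutants and 64.7, 64.3, 65.5 and 61.2 FPKM in controls, above all controls in every mutant and highest in mutant 2. Mutant 2 was highest in 7 of the 8 partners, 6 of 7 cross-linking genes and 12 of 18 hydroxylation and folding genes.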

How the data were processed

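Corpus tissue was kept in RNAlater, its RNA isolated with Trizol, and libraries prepared with the NEBNext Ultra kit, per the labels' protocols. For each Ensembl gene the authors deposited a read count and an FPKM value. The submitters' processing notes name CASAVA, fastp, featureCounts and STAR 2.5, with no role or order. The build and strand setting were not given in the sources used here. Overlapping and antisense genes are therefore uncertain. All 44 collagens had the coordinates of GENCODE M21 (GRCm38). The library size read from the deposited FPKM was 1.00 to 1.01 times the TMM library size, so levels in FPKM carry nearly the scaling of the tests. The control column headed SCI was read as control 1.

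Low counts were filtered with filterByExpr and libraries scaled with TMM. Mutants were tested over controls, 4 against 4, with the robust quasi-likelihood test of edgeR 4.0.16 (R 4.3.3). P-values were Benjamini-Hochberg adjusted over all tested genes, 15862 with all libraries and 16124 without mutant 2, with a threshold of 0.05. Every adjusted p comes from this test unless DESeq2 1.42.0 or limma-voom (limma 3.58.1) is named. With all libraries DESeq2 gave no p for most fibrillar chains, so it could not call them. The same held for Col4a1, Col4a2, Col9a2, Col12a1, Col16a1, Col6a3, Col7a1, Col8a1, Col8a2 and Col17a1. An SE is the unshrunk log2 coefficient's size over the square root of F. Classes follow collagen type, with XV and XVIII among basement membrane collagens. Motifs were matched on both strands. The test was run on simulated counts with known changes.

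The members, gene lists, tests and alternatives were chosen with earlier results of these data known. Named were the members called in either fit, the 3 with the highest mean FPKM and the 2 with the smallest p of each class, and partner chains, with the rest accounted for by level or count. Of the pathway lists, called members were named. Alternatives were DESeq2, limma-voom with sample weights, RLE factors, plain library totals, other filters, a stricter threshold, protein-coding genes alone, a replicate block, leaving out single libraries or both with squamous transcripts, and limma-trend on log2(FPKM + 1) and log2(FPKM + 0.1). Those combined with leaving out mutant 2 were added after seeing the data, except the edgeR fit. Pairs of libraries within a group differed beyond sampling noise (lowest chi-square per degree of freedom 14.2). Intervals cover counting error only.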

Additional observations from a re-analysis of the deposited data

Results flagged for a closer look

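In FPKM, 72 groups of 4 libraries (36 tested collagens, mutants and controls) were looked at for a library whose gap to its nearest neighbour, divided by the range of the group, exceeded Dixon's 95% critical value for 4 samples. For independent, normally distributed values chance flags about 1 group in 20. These groups share the same libraries, and FPKM were not logged, so that rate is no yardstick for the number of flags. Mutant 2 had also been set apart beforehand for its fibroblast genes, so its flags are not separate results. There were 22 such groups: mutant 2 was the highest library in 19 and the lowest in 1, and 2 were control groups. Mutant 2 was the highest among fibrillar chains in Col1a1 (0.984), Col1a2 (0.981), Col3a1 (0.975), Col5a1 (0.975), Col5a2 (0.959), Col5a3 (0.955), Col11a1 (0.995) and Col24a1 (0.992). Among basement membrane chains the same held for Col4a1 (0.935), Col4a2 (0.945) and Col15a1 (0.843). Among FACITs it held for Col9a2 (0.998), Col12a1 (0.971), Col14a1 (0.855) and Col16a1 (0.914), and among the other types for Col6a3 (0.909), Col7a1 (0.839), Col8a1 (0.949) and Col8a2 (0.983). In Col4a5 mutant 2 was the lowest mutant (0.902). In controls, control 2 was the lowest in Col5a3 (0.834) and control 4 the lowest in Col9a3 (0.911). The summed FPKM of fibroblast, pericyte, endothelial and macrophage markers was highest in mutant 2 as well, at 4.12, 5.11, 7.58 and 3.99 times the mean of the other mutants. By gene, 9 of 10, 5 of 6, 8 of 8 and 5 of 5 of these markers were highest there, over mutants and controls. The 10 smooth muscle markers lay below every control in all mutants, so 0 of 10 could be highest in mutant 2. Their sum there was 1.40 times the mean of the other mutants. The part of these cells in the collagen values was not tested.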

How the results depend on the processing

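Counts are of collagens called, with those of all genes after them. With all 8 libraries edgeR called 5 higher and 2 lower (3208 of all genes). Plain library totals gave 22 higher (10136 of all genes), DESeq2 5 lower (4930), limma-voom 8 lower (5668), the replicate block 3 higher (1824), and an adjusted p under 0.01 3 higher (1047). The 3 limma-trend fits on FPKM (pseudocount 1 or 0.1 with a mean FPKM of at least 0.5, and pseudocount 1 with no filter) gave 3 higher each. Leaving out both libraries with squamous transcripts gave 1410 of all genes. Leaving out 1 library in turn gave 3 to 7 higher, 2 to 8 lower and 1717 to 5400 of all genes, the highest each time without mutant 2. Without mutant 2 plain totals gave 23 higher in place of 7. Some log2 fold changes reversed in direction. Col9a2 (3.05 with all libraries) was -4.37 in limma-voom, -4.70 without mutant 2 (leaving out 1 library gave up to 3.46), -2.45 with the replicate block and -0.79 in limma-trend with pseudocount 0.1. Col8a2 (0.95) was -2.44, -2.66 (up to 1.35), -1.77 and -1.07 in the same fits, and -0.32 with pseudocount 1, filtered or not. Other chains reversed without passing the threshold in these fits. In limma-voom Col5a3 was -0.37, Col11a1 -0.0306, Col14a1 -0.32, Col6a1 -0.0669 and Col6a2 -0.0910. Without mutant 2 they were -0.54, -0.17, -0.46, -0.14 and -0.17, with 1.78, 6.05, 0.88, 0.58 and 0.30 the highest when leaving out another library. Col4a5 was 0.13 on plain totals. The cause of these changes was not tested. Of 602 log2 fold changes of 31 collagens under an alternative, 533 kept direction and side of the threshold, 32 passed it newly, 16 lost it and 21 reversed. Col11a2, Col18a1, Col9a3, Col4a3 and Col4a4 were called in each of 20 fits. With the replicate block, Col12a1 and Col22a1 lost their calls (adjusted p = 0.164 and 0.0720). Between a mutant and the control of the same number, deviations correlated at -0.0618 to 0.0688. Mutant 2, which stood apart, weighs on the mutant mean behind these values, so they cannot decide whether the numbers pair the libraries. Mutant 3 and control 3 also shared squamous transcripts. Depth limits the members with few reads, the 8 untested ones and Col22a1.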
